A study of Mus musculus with 6 samples.

Results

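The BMP, activin and TGF-beta pathway was described in cultured stromal cells from adult mouse bone marrow through 51 genes, chosen as a list of ligands, receptors, Smad proteins, antagonists, latency proteins, targets and 1 processing protease. Of the 18193 genes that had a probe set annotated to them alone, 49 were members of the list, with 106 probe sets in all. Bmp3 and Gdf6 were not analysed here. RNA from 3 samples of mesenchymal stem cells (MSC) was hybridised to Affymetrix arrays next to RNA from 3 samples of neural-crest-derived stem cells, called NCSC here as in the labels. The labels describe all 6 samples as untreated cells from the bone marrow of adult female mice 10 weeks old, of C57BL/6 x SV129 background and with the genotype wnt1/CRE-R26R-lacZ. In such animals a Cre recombinase driven by Wnt1 sequences switches on a lacZ reporter in cells of neural crest descent, and both cell types carried the same transgenes. The cells had grown for at least 5 passages in Mesencult medium before clones were selected. Whether replicates came from separate animals or clones is not stated, so the p-values measure the spread between these samples only, which may be technical. Differences between single clones and differences between the cell types cannot be told apart.

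Ligands of this family are secreted dimers that bind pairs of type I and type II receptor kinases. TGF-beta and activin signal mainly through Smad2 and Smad3, and BMPs through Smad1, Smad5 and Smad9, each with the shared partner Smad4. Latent TGF-beta is stored in the matrix by the latency proteins, follistatin and noggin-type proteins trap ligands outside the cell, and Smad6, Smad7 and Bambi dampen signalling inside it or at the membrane. In bone marrow stroma the BMPs are known for driving bone and cartilage formation, and in the neural crest BMP and TGF-beta signals act on lineage choice.

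Replicates correlated at 0.985 to 0.997 across the 10501 tested genes, and arrays of different cell types at 0.756 to 0.772. MSC 2 and NCSC 3 stood apart from the other arrays of their cell type, with 2.62% and 2.69% of genes more than 2-fold from the other MSC arrays and 4.63% and 4.98% from the other NCSC arrays. Of 7 neural crest and glial markers with a probe set, all 7 had an NCSC mean above 4 (log2), the limit taken here as background, and 3 had such an MSC mean. One of them, S100b, was at 7.72 and 7.29 on NCSC 1 and NCSC 2 but at 2.15 on NCSC 3 and on the MSC arrays. Of 9 stromal markers 6 were above it in MSC and 7 in NCSC, while Thy1 and Lepr were under it on all arrays. Nt5e was the other one under it in MSC, averaging 3.00 there against 8.51 for NCSC. Eng was likewise dimmer in MSC, with an average of 5.61 against 10.30. Pdgfra (9.61 against 6.44) and Vcam1 (12.61 against 8.57) were brighter in MSC. Pdgfrb, Cd44 and Cxcl12 were bright in both cell types. The 5 endothelial markers were at the lowest value on all arrays. Of 7 blood cell markers 1 was above the limit in MSC and 2 in NCSC, with a summed level of 5.67 to 6.28 in MSC and 8.88 to 9.04 in NCSC. Ptprc, Itgam, Adgre1 and Cd3e were at 2.12 to 2.13 on all arrays, and the lysosomal gene Cd68 was at 8.75 to 8.89 on the NCSC arrays and 2.22 to 3.15 on the MSC arrays. Cd14 went the other way, at 4.63, 3.96 and 5.15 on the MSC arrays and 2.16 to 2.19 on the NCSC arrays. Csf1r lay near the limit, with means of 3.81 in MSC and 4.34 in NCSC. The samples are labelled female, yet the Y-linked genes Eif2s3y (10.39 to 11.29) and Uty (7.68 to 8.68) were above the limit on all 6 arrays and Xist was at 2.12 to 2.13. Another Y-linked gene, Kdm5d, was at 8.58 to 9.24 on the NCSC arrays and 2.12 to 2.16 on the MSC arrays. What part this mismatch and the blood cell markers have in the differences below was not tested.

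Most of the pathway's expressed genes differed between the cell types, with the widest differences in single ligands, binding proteins and Id4. NCSC had less Bmp4, activin subunit and follistatin RNA and more RNA of all 3 TGF-beta isoforms, of Id4 and of Tgfbi. Of the 49 genes 38 passed the filter, an intensity above the limit on at least 3 of the 6 arrays, and 30 of them were called at an adjusted p under 0.05, 12 higher and 18 lower in NCSC. Over all tested genes 64.1% were called, 35% higher and 29.1% lower. Among the members 17 were both called and at least 2-fold apart by the fitted difference, 6 higher and 11 lower, against 29% of all tested genes (15.1% higher, 14% lower). For 5 members the dimmer cell type had a mean at or under the limit, so that their fold is a lower bound, as for 7.22% of all tested genes. These 5 passed the filter through the brighter cell type alone, which fixed the direction of their difference. With such genes counted at their bound, 16 members were at least 2-fold apart, 6 higher and 10 lower, against 28.5% of all tested genes, because the bound of the receptor Bmpr1b is 1.88-fold. The median absolute difference was 0.89 on the log2 scale over the 38 members and 0.55 over all tested genes, and the median signed difference was -0.19 against 0.06. A member counted here as called passed limma's test with Benjamini-Hochberg adjustment over all tested genes, and differences are given as the NCSC mean minus the MSC mean in log2 units. Because whole cultures were measured, fewer cells with a transcript and less of it per cell cannot be told apart.

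Members that did not pass the filter were mostly BMP and GDF ligands. Of the 11 genes that failed it, 10 were under the limit on every array in every probe set, which is 20.4% of the 49 members against 40.7% of all genes with a probe set. They were the ligands Bmp2, Bmp5, Bmp6, Bmp7, Gdf5, Gdf10 and Gdf11, the receptor Acvr2b, Smad9 and the BMP antagonist noggin (Nog). Of these, 6 were at the lowest value of 2.12 on all arrays, and the highest value of any of the 10 was 3.67, in Acvr2b. Chordin (Chrd), which holds BMPs in the extracellular space, read 3.85, 4.61 and 4.69 on the MSC arrays and 2.79, 2.79 and 2.57 on the NCSC arrays, so it was above the limit on MSC 2 and MSC 3 alone and was not tested.

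Promoter sequences are shown for 4 members whose levels differed at least 2-fold, the ligand Bmp4, the targets Id3 and Id4, which moved in opposite directions, and Tgfbi. They are the 250 bases before the gene start in RefSeq's table for GRCm38.p6, read 5′ to 3′ on the strand of the gene, and capitals mark matches on either strand to the Smad box CAGAC, to GGCGCC, a GC-rich sequence of the kind described in BMP-responsive promoters, or to the E-box CACGTG.
Bmp4, chr14:46390670-46390919, minus strand: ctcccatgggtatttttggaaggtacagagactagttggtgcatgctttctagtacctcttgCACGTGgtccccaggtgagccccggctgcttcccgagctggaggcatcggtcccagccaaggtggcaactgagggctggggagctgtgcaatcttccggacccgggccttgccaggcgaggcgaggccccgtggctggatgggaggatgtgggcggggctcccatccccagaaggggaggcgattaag
Id3, chr4:136143572-136143821, plus strand: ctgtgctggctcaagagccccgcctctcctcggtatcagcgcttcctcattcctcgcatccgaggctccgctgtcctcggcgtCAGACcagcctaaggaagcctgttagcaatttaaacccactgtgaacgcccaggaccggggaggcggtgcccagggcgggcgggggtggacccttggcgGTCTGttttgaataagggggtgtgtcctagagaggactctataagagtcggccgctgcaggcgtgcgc
Id4, chr13:48260866-48261115, plus strand: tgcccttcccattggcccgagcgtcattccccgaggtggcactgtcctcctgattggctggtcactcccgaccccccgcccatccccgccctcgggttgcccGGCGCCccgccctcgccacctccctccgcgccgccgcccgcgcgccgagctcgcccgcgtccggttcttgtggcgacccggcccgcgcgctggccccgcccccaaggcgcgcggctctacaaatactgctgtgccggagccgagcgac
Tgfbi, chr13:56609336-56609585, plus strand: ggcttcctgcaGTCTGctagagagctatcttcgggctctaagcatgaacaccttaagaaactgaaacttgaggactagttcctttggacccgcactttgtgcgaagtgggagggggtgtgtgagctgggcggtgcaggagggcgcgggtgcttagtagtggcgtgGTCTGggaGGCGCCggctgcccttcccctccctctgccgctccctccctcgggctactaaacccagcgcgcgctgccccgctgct
Id3 held CAGAC matches that began at -167 and -68 from the gene start, Id4 a GGCGCC at -148, Tgfbi CAGAC matches at -239 and -85 and a GGCGCC at -77, and Bmp4 a CACGTG at -188. The table held 43 promoters of 35 members. CAGAC was found in 44.2% of these and in 42.2% of all 32851 promoters, GGCGCC in 27.9% against 9.59%, and CACGTG in 9.3% against 6.02%. The member promoters had a median GC content of 66.8%, against 52.4% over all promoters, and a match is a description of the letters only.

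The ligands split into a group lower in NCSC, Bmp4 and the activin subunits, and a group higher in NCSC, the TGF-beta isoforms. All 6 tested ligands were called, 3 in each direction, and 5 of them differed at least 2-fold, against 64.1% and 29% of all tested genes. Bmp4, the one tested BMP ligand among 8 BMP and GDF genes with a probe set, read 9.13, 9.76 and 8.87 on the MSC arrays and 2.68, 2.68 and 2.21 on the NCSC arrays. All NCSC arrays were thus under the limit, and Bmp4 was at least 38.1-fold lower in NCSC (adjusted p = 4.47e-06). This bound sets the dimmer arrays to the limit of 4.

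Inhba, which encodes the subunit of activin A, read 12.70, 13.11 and 12.62 in MSC and 7.25, 7.52 and 6.94 in NCSC. Every NCSC array was far below every MSC array but above the limit, and the difference was -5.57 ± 0.19 (SE; adjusted p = 3.04e-06). Inhbb, the subunit of activin B, differed less, by -1.79 ± 0.37 (adjusted p = 0.0064), from 10.05, 11.10 and 10.02 in MSC to 8.35, 8.28 and 9.17 in NCSC. Its groups did not overlap, as was the case for 31 of the 38 tested members and for 71.2% of all tested genes.

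Tgfb1, the isoform best known from immune and fibrotic tissue, read 3.89, 4.004 and 4.17 in MSC and 6.70, 6.66 and 7.62 in NCSC. The MSC arrays lay around the limit and cannot be told from background, so the fitted difference of 2.97 ± 0.27 (adjusted p = 0.00018) is no measured fold over an MSC level. It was 2.93 with values under 4 set to 4. Tgfb2 rose by 1.83 ± 0.10 (adjusted p = 2.23e-05), from 10.88, 10.94 and 10.74 to 12.79, 12.55 and 12.70. Its 4 kept probe sets were all called higher, by 1.65 to 2.03. Tgfb3 rose by 0.75 ± 0.11 (adjusted p = 0.0016), from 9.82, 10.03 and 9.71 to 10.65, 10.48 and 10.68. Its groups did not overlap, as for 71.2% of all tested genes. Bmp1, a metalloprotease that cleaves procollagen and chordin and is no ligand of the family, rose by 2.05 ± 0.095 (adjusted p = 1.07e-05), from 9.82, 9.98 and 9.93 to 11.94, 11.85 and 12.08, and its other kept probe set rose by 1.82.

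**Figure D1:**
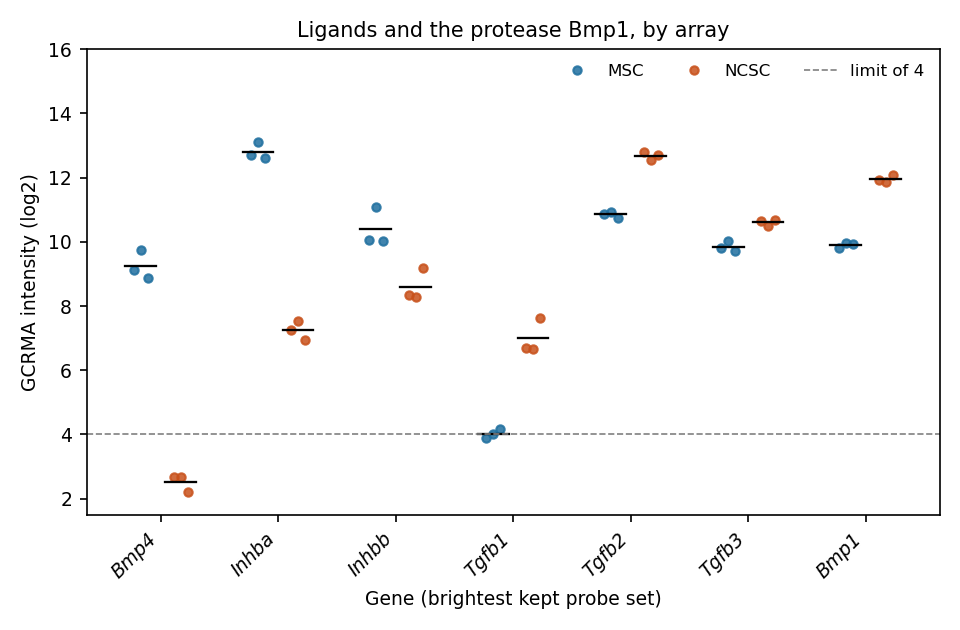
GCRMA intensity (log2) of the 6 tested ligands and the protease Bmp1 on each MSC and NCSC array, with points for arrays, black bars for group means and a dashed line at the limit of 4. Bmp4 falls under the limit on all NCSC arrays, Inhba and Inhbb are lower in NCSC, and the 3 TGF-beta isoforms and Bmp1 are higher.

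The receptors had smaller differences than the ligands. Of 10 tested receptors and coreceptors 4 were called higher and 3 lower, 70% against 64.1% of all tested genes. None differed by at least 2-fold with Bmpr1b counted at its bound, against 28.5% of all tested genes. For 6 the 95% confidence interval of the difference lay between -1 and 1, as for 55.3% of all tested genes. The median absolute difference of the receptors was 0.58, against 2.40 over the tested ligands. The ligand value rests in part on Bmp4, under the limit in NCSC, and Tgfb1, around it in MSC. Of 13 ligands with a probe set 6 were tested, and of 11 receptors and coreceptors 10. Bmpr2, the BMP type II receptor, rose by 0.92 ± 0.14 (adjusted p = 0.00162), from 12.49, 12.84 and 12.42 to 13.50, 13.38 and 13.63, and its 3 kept probe sets were all called higher, by 0.92 to 1.82. The activin type II receptor Acvr2a rose by 0.72 ± 0.16, the activin type I receptor Acvr1b by 0.66 ± 0.13 and the BMP type I receptor Acvr1 by 0.33 ± 0.082, with adjusted p of 0.00735, 0.00552 and 0.0122.

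The BMP type I receptor Bmpr1b read 5.30, 4.08 and 5.36 in MSC and 2.52 on each NCSC array. It was dim on the MSC arrays and below background in NCSC, and was at least 1.88-fold lower in NCSC (adjusted p = 0.00129), a call lost with values under 4 set to 4 (adjusted p = 0.0544, the highest over all settings). The other BMP type I receptor, Bmpr1a, averaged 11.88 ± 0.073 (SD, n = 3) for MSC and 11.84 ± 0.27 for NCSC. The difference of -0.04 had an interval of -0.40 to 0.32, and none of its 4 kept probe sets was called. Without MSC 2 and NCSC 3 together it was called lower (-0.23, adjusted p = 0.0407, the lowest over all settings), and without NCSC 3 alone the difference was -0.19 and not called.

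The TGF-beta receptors were bright in both cell types. The type II receptor Tgfbr2 read 13.03, 13.20 and 13.01 in MSC and 12.67, 12.56 and 12.84 in NCSC, lower by 0.39 ± 0.11 (adjusted p = 0.0185), and the coreceptor betaglycan (Tgfbr3) was lower by 0.49 ± 0.14 (adjusted p = 0.0241). Tgfbr2 was not called without NCSC 1 or NCSC 2 (adjusted p = 0.0581 and 0.0585) or with the replicate number as a block (0.0568), within a range of 0.0018 to 0.0585. Tgfbr3 was not called without NCSC 1, NCSC 2 or NCSC 3 (0.0524, 0.073 and 0.052, range 0.0109 to 0.078). The type I receptor Tgfbr1 differed by -0.19 ± 0.13 and was not called, with an interval of -0.50 to 0.13. It was called lower under some settings, among them without NCSC 3 (-0.32, adjusted p = 0.00848, range 0.00847 to 0.527). Acvrl1, a type I receptor best known from endothelium, was dim in both cell types, at means of 4.75 and 5.44, and was not called (adjusted p = 0.12), except with array weights (1.02, adjusted p = 0.0216, range 0.0216 to 0.314).

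Among the Smad proteins Smad1 stood out, with less RNA in NCSC. Of 7 tested members 4 were lower, none was higher and 3 were not called. The called share was 57.1%, against 64.1% of all tested genes. The only Smad called and at least 2-fold apart, against 29% of all tested genes, was Smad1. This BMP-activated Smad read 12.23, 12.01 and 12.07 in MSC and 9.84, 9.96 and 10.16 in NCSC, and fell by 2.11 ± 0.11 on the log2 scale (adjusted p = 2.16e-05). Its 3 kept probe sets were called lower, by -2.50 to -2.03. Smad5, which acts beside Smad1, differed by -0.42 ± 0.074 (adjusted p = 0.00301), while its other kept probe sets differed by -1.44, called, and -0.20, not called. The inhibitory Smad6 differed by -0.85 ± 0.21 (adjusted p = 0.0115) and was not called without the filter on low values (0.0549, range 0.0029 to 0.0549).

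The Smads of the TGF-beta and activin arm were nearly level between the cell types. Smad2 differed by -0.34 ± 0.096 (adjusted p = 0.0208), a call lost without MSC 1, MSC 3, NCSC 1 or NCSC 2 (0.0773, 0.077, 0.0587 and 0.0552) and with the replicate block (0.0512). The means of Smad3 were 10.14 ± 0.27 (SD, n = 3) and 10.16 ± 0.10, a difference of 0.02 with an interval of -0.35 to 0.39. The common partner Smad4, at means of 13.77 ± 0.067 and 13.58 ± 0.038, was not called (adjusted p = 0.079, range 0.016 to 0.229), and none of its 3 kept probe sets was. It was called lower under 4 settings, among them array weights and the removal of MSC 2 and NCSC 3 together (-0.22, adjusted p = 0.0424). Smad7, which blocks activated receptors, was not called in either kept probe set (-0.02 and -0.10). Its brightest probe set read 11.20 on all NCSC arrays and on MSC 1 and MSC 3, and 11.25 on MSC 2. The value was the same, 11.1991, on MSC 3, NCSC 1 and NCSC 3, so this probe set may not resolve a difference. The other kept probe set averaged 9.93 in MSC and 9.83 in NCSC.

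**Figure D2:**
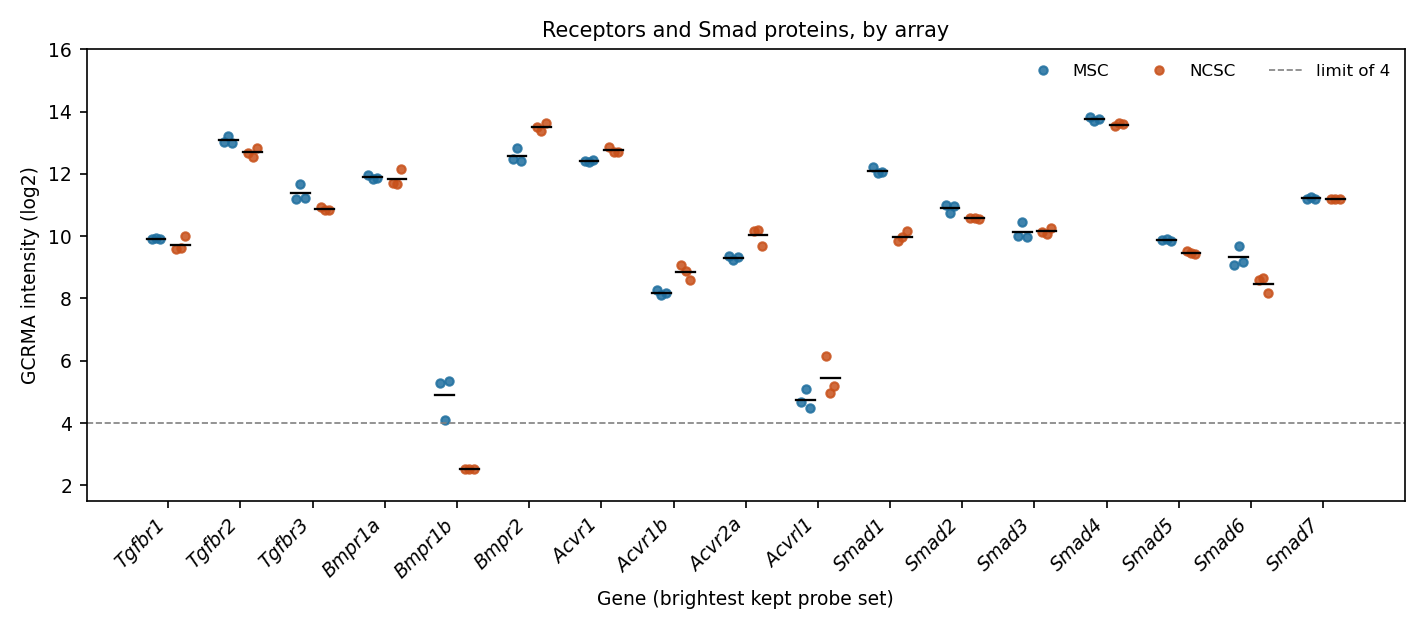
GCRMA intensity (log2) of the 10 tested receptors and coreceptors and the 7 tested Smad genes on each array, with points for arrays, black bars for group means and a dashed line at the limit of 4. The groups lie within 1 unit of each other for all of these genes except Bmpr1b and Smad1.

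Among the antagonists the follistatin family was lower in NCSC, and the cysteine-knot antagonist Grem1 and the pseudoreceptor Bambi were higher. All 5 tested members were called, 2 higher and 3 lower, and 4 differed at least 2-fold, against 64.1% and 29% of all tested genes. The matrix glycoprotein Fstl1 had the largest difference of the 38 tested members. It read 13.92, 14.06 and 14.06 in MSC and 3.45, 3.05 and 2.54 in NCSC, which put it at least 1034.5-fold lower in NCSC (adjusted p = 2.81e-07), and its other kept probe set read 14.04 in MSC and 2.68 in NCSC as means.

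Follistatin (Fst), which binds activin, read 11.72, 12.17 and 11.81 in MSC and 10.36, 10.38 and 8.42 in NCSC. NCSC 3 was well below the other NCSC arrays, and the difference of -2.18 ± 0.54 (adjusted p = 0.0128) was -1.53 without NCSC 3 (0.000621). It was not called without the filter on low values (0.0684, range 0.000181 to 0.0684). The related activin binder Fstl3 read 9.88, 9.79 and 10.07 in MSC and 7.51, 7.72 and 8.32 in NCSC, and fell by 2.06 ± 0.22 on the log2 scale (adjusted p = 0.000328). Inhba, Fst and Fstl3 were thus all lower in NCSC, ligand subunit and binding proteins alike.

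Grem1, a secreted BMP antagonist, rose by 0.96 ± 0.21 (adjusted p = 0.00741), from 10.20, 10.84 and 10.18 to 11.23, 11.27 and 11.59. Bambi, a membrane protein that resembles a type I receptor without a kinase, rose by 1.20 ± 0.26 (adjusted p = 0.00711), from 8.39, 8.63 and 8.19 to 9.87, 9.91 and 9.04. Neither gene showed overlap between the groups, as was the case for 71.2% of all tested genes.

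The latency proteins, which tie latent TGF-beta to matrix fibres, were lower in NCSC or not called. Ltbp2, a relative that binds matrix fibres rather than the ligand, read 8.05, 8.53 and 8.18 in MSC and 2.30 on each NCSC array, and was at least 19.1-fold lower in NCSC (adjusted p = 4.13e-07). Ltbp1 read 13.68, 13.86 and 13.72 in MSC and 12.14, 11.93 and 12.51 in NCSC, and fell by 1.56 ± 0.16 on the log2 scale (adjusted p = 0.000303). Its 3 kept probe sets were all called lower. Ltbp4 differed by -0.76 ± 0.23 (adjusted p = 0.0251) and lost its call when any single array other than NCSC 3 was left out (0.0506 to 0.0818, within 0.000326 to 0.0986 over all settings).

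Probe sets of Ltbp3 disagreed. Its brightest one read 13.29, 13.86 and 13.47 in MSC and 13.47, 13.47 and 13.28 in NCSC and was not called (-0.13 ± 0.16, adjusted p = 0.493), and another differed by 0.01. The remaining kept probe sets, dimmer, differed by -1.52 and -1.60 and were called lower. Taken as the average over its kept probe sets, Ltbp3 was called lower (-0.81, adjusted p = 0.000518).

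The Id factors, helix-loop-helix proteins without a DNA-binding part that are typical BMP targets, went separate ways. Id4 read 3.02, 3.94 and 3.22 in MSC, under the limit, and 9.56, 9.83 and 9.94 in NCSC, at least 54.8-fold higher in NCSC (adjusted p = 5.52e-06). Another probe set was at least 28.9-fold higher, and the remaining one, above the limit in both cell types, rose by 1.45. Id3 read 13.23, 13.24 and 13.26 in MSC and 12.11, 12.26 and 11.82 in NCSC, and fell by 1.18 ± 0.13 on the log2 scale (adjusted p = 0.000349).

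Id1 read 11.64, 12.01 and 11.58 in MSC and 11.10, 11.30 and 11.16 in NCSC, a difference of -0.56 ± 0.14 (adjusted p = 0.0127). Id2 was not called (-0.14 ± 0.24, adjusted p = 0.642, interval -0.73 to 0.45). NCSC 3, at 10.48, lay under all other arrays of Id2, and without MSC 2 and NCSC 3 together Id2 was called higher (0.22, adjusted p = 0.0312, the lowest over all settings).

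Tgfbi, a secreted adhesion protein named for its induction by TGF-beta, read 8.40, 6.97 and 8.15 in MSC and 11.58, 11.53 and 12.47 in NCSC. The groups lay far apart although MSC 2 was low and NCSC 3 high, and the rise of 4.03 ± 0.44 (adjusted p = 0.000384) was 3.29 without both of these arrays. Its 4 kept probe sets rose by 3.91 to 5.68.

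**Figure D3:**
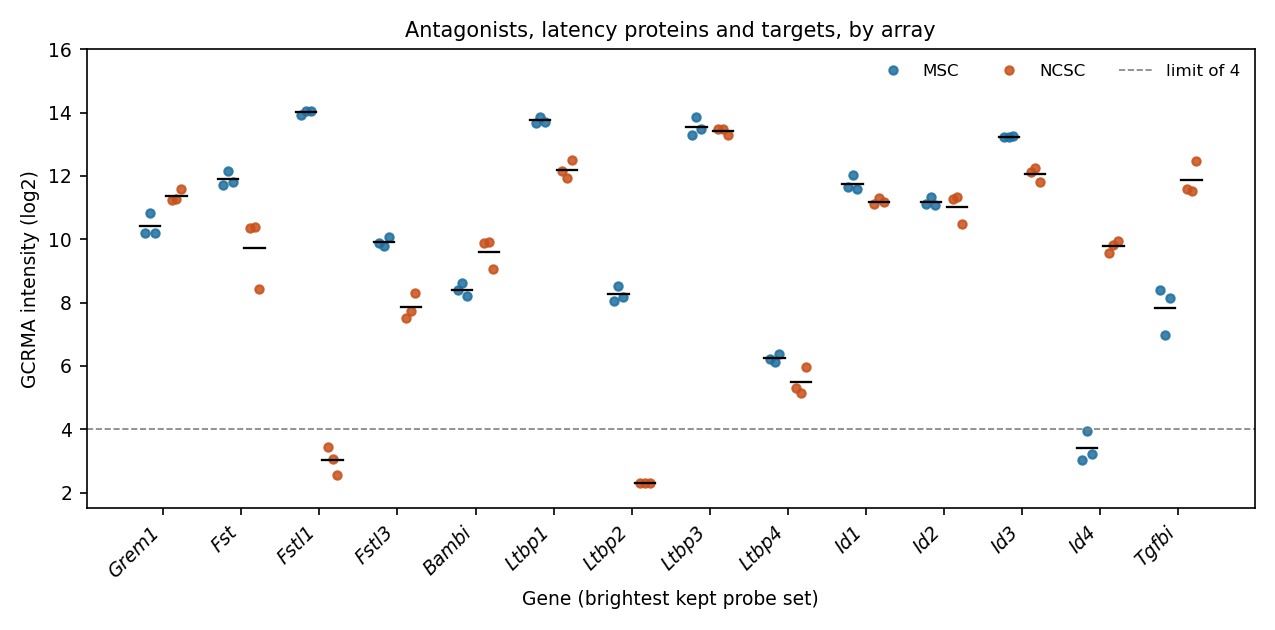
GCRMA intensity (log2) of the 5 tested antagonists and binding proteins, the 4 latency proteins and the 5 targets on each array, with points for arrays, black bars for group means and a dashed line at the limit of 4. Fstl1 and Ltbp2 fall under the limit on all NCSC arrays, Id4 is under it on all MSC arrays, and single NCSC points of Fst and Id2 lie apart.

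**Figure D4:**
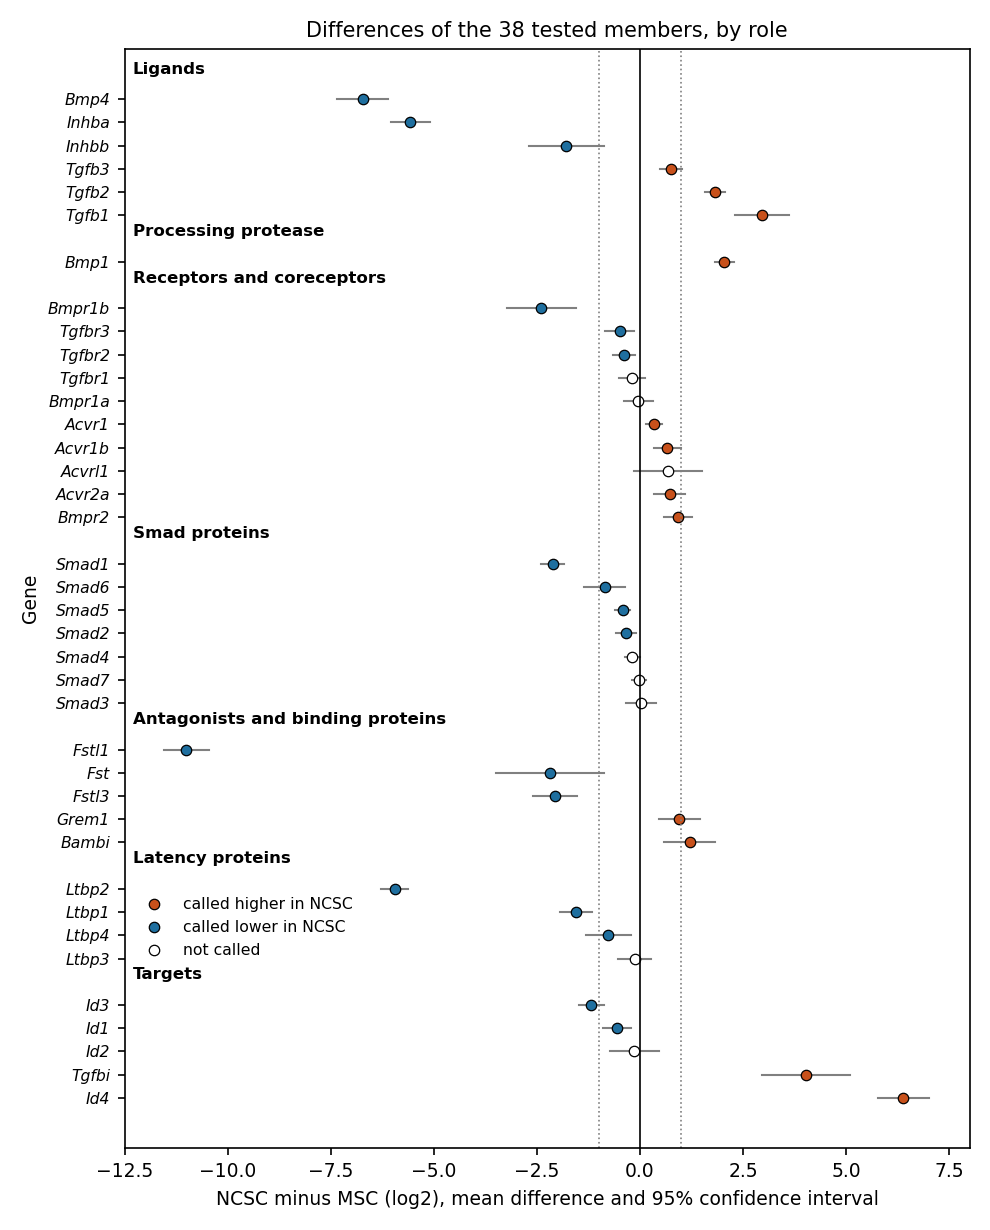
Differences between NCSC and MSC (log2) of the 38 tested members grouped by role, with the 95% confidence interval of limma's fit as a line and the call as the fill of the point. Single ligands, antagonists and targets reach far past the dotted lines at -1 and 1, whereas the points of the receptors and Smads other than Bmpr1b and Smad1 lie between these lines, with intervals of Bmpr2, Acvr2a, Acvrl1 and Smad6 that cross 1 of them; for Bmp4, Bmpr1b, Fstl1, Ltbp2 and Id4 the point rests on values under the limit of 4.

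Probe sets of a member mostly had the same sign. Of the 71 kept probe sets of the members 25 were called higher and 28 lower, 74.6%, against 60.1% of all kept probe sets (33% higher, 27.2% lower). For 19 members with several kept probe sets, 15 had all of them on the same side of 0, 78.9% against 79.8% of the 4926 genes with several. All of them were called in the same direction for 12 of the 19 members, 63.2% against 41.8% of all such genes, and no member had probe sets called in opposite directions, against 2.13% of all such genes. Signs were mixed for Bmpr1a, Id2, Smad3 and Ltbp3, of which Ltbp3 alone had called probe sets. Smad4 and Smad7 had no called probe set, and Smad5 had called and uncalled ones on the same side of 0.

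**Figure D5:**
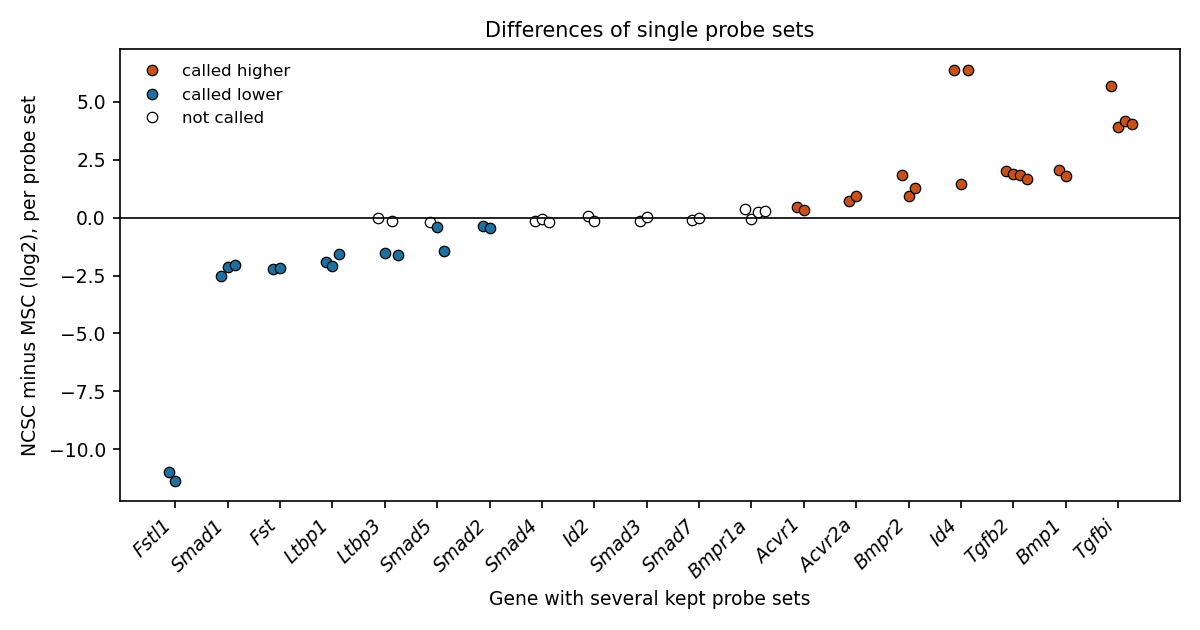
Difference between NCSC and MSC (log2) of each kept probe set of the 19 members with several, with the call in the fit over all kept probe sets as the fill of the point. Points of 1 gene cluster closely for most members, and are spread widely for Id4, Tgfbi, Ltbp3 and Smad5.

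The rest of the pathway was read from 122 other genes in 7 lists, of which 113 had a probe set and 73 were tested. Of these 54 were called, 27 higher and 27 lower, which is 74% against 64.1% of all tested genes (35% higher, 29.1% lower), and their median difference was 0.01. Among ligands outside the members only Lefty1, an antagonist of Nodal, passed the filter of 14 with a probe set. It read 7.63, 7.85 and 7.73 in MSC and 4.47, 3.36 and 2.96 in NCSC, and was at least 11.9-fold lower in NCSC (adjusted p = 0.000178).

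Of 4 other tested receptors and coreceptors 2 were called, both higher in NCSC, against 64.1% of all tested genes called. Endoglin (Eng), a TGF-beta and BMP coreceptor, rose by 4.69 ± 0.25 (adjusted p = 2.01e-05), from 6.14, 5.52 and 5.15 to 10.38, 10.15 and 10.37. The BMP coreceptor Rgmb rose by 2.82 ± 0.12 (adjusted p = 7.43e-06), from 8.15, 7.99 and 7.94 to 10.94, 10.64 and 10.98. Both rises were larger than that of any of the 10 tested receptors among the members. Eng also stands on the list of stromal markers.

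Of 6 other tested extracellular modulators 2 were higher and 3 lower, 83.3% called against 64.1% of all tested genes. The protease Htra1 fell by 3.99 ± 0.18 (adjusted p = 9.87e-06), and the BMP-binding proteins Crim1 and Bmper fell by 1.68 ± 0.12 and 1.19 ± 0.15 on the log2 scale (adjusted p = 6.92e-05 and 0.000744). Wfikkn1, a protease-inhibitor-like protein that binds growth and differentiation factors, rose by 2.72 ± 0.28 (adjusted p = 0.00032).

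Of 11 tested genes for latency, release and activation 6 were higher and 2 lower, 72.7% called against 64.1% of all tested genes. Integrin beta 8 (Itgb8), which pairs with the alpha v chain to free active TGF-beta, read 8.53, 8.55 and 8.31 in MSC and 12.88, 12.70 and 12.74 in NCSC, a rise of 4.31 ± 0.10 (adjusted p = 5.1e-07). The proprotein convertase Pcsk6 rose by 3.07 ± 0.28 and the plasminogen activator Plau by 1.51 ± 0.29, with adjusted p of 0.000177 and 0.00471. For Pcsk6 the MSC arrays read 3.999, 4.74 and 4.40, close to the limit of 4, so its difference is no clear fold over an MSC level. Tll1, a close relative of Bmp1, went the other way and was at least 3.69-fold lower (adjusted p = 1.11e-05). It passed the filter through the MSC arrays alone, which fixed the direction of its difference.

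All 26 cytoplasmic and nuclear modulators were tested, with 10 higher and 7 lower in NCSC, a called share of 65.4% that lies near the 64.1% of all tested genes. Pmepa1, a TGF-beta-induced inhibitor of Smad signalling, rose by 2.69 ± 0.11 (adjusted p = 5.72e-06), and its 3 kept probe sets by 2.69 to 4.42. The endocytic adaptor Dab2 fell by 3.69 ± 0.10 and caveolin Cav1 by 2.23 ± 0.10 on the log2 scale, with adjusted p of 9.23e-07 and 9.21e-06. The ubiquitin ligase Smurf1, which marks BMP Smads for degradation, rose by 1.68 ± 0.087 (adjusted p = 1.78e-05).

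Genes known to respond to TGF-beta or activin did not share a direction. Of 18 tested, 5 were higher and 9 lower in NCSC, 77.8% called against 64.1% of all tested genes, with a median of -0.45. Integrin beta 3 (Itgb3) was at least 49-fold higher (adjusted p = 3.47e-08). It passed the filter through the NCSC arrays alone, which fixed the direction of its difference. Periostin (Postn) rose by 2.62 ± 0.23 (adjusted p = 0.00015). The collagen crosslinking enzyme Lox, in contrast, fell by 5.07 ± 0.13 and the contractile protein Tagln by 2.22 ± 0.092 on the log2 scale (adjusted p = 8.05e-07 and 6.63e-06). The smooth muscle markers had a summed level of 16.33 to 16.45 on the log2 scale on the MSC arrays and 14.37 to 14.68 on the NCSC arrays, and 3 of 5 had a mean above the limit in each cell type. Acta2 (15.58 in MSC, 14.09 in NCSC) and Tagln (14.92, 12.70) stand on both lists, Cnn1 had means of 12.31 and 2.38, Des went the other way with 3.04 and 4.95, Myh11 was at 2.12 on all arrays, and the part of these markers in the result was not tested.

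All 7 tested genes on the list of BMP targets were called, 2 higher and 5 lower, against 64.1% of all tested genes (35% higher, 29.1% lower). Their median difference was -1.80, against 0.06 over all tested genes. Gata3 and Atoh8 passed the filter through the MSC arrays alone, which fixed the direction of their difference. The transcription factors Gata3, Sox9 and Atoh8 were under the limit of 4 in the NCSC mean and at least 7.18-fold, 7.16-fold and 5.4-fold lower there, with adjusted p of 4.94e-05, 0.00431 and 0.000207, and Gata2 rose by 1.89 ± 0.25 (adjusted p = 0.000998). For Sox9 the NCSC arrays read 2.52, 3.61 and 5.25, and the difference of -3.46 was -2.83 without NCSC 1 and -4.19 without NCSC 3. The other called genes, named after their values were seen, were Prrx1, Msx1 and Hes1. Prrx1 (-1.80, adjusted p = 6.6e-05) was called lower under all settings. Msx1 was not called under several settings, among them without MSC 1, MSC 2 or MSC 3 (adjusted p = 0.0934, 0.0535 and 0.1004, range 0.00636 to 0.123). Hes1 lost its call when any single array other than NCSC 3 was left out (range 0.00186 to 0.0955). This list held 6 further genes with a probe set that did not pass the filter.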

How the data were processed

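Total RNA of 6 samples was hybridised to Affymetrix arrays. The authors deposited 1 linear intensity per probe set and array, produced by GCRMA per the submitters' processing notes (version and other steps not given in the sources used here). GCRMA corrects background by probe, normalizes between arrays and leaves many dim probe sets at a common lowest value, here 4.36, or 2.12 after log2. There were 45101 probe sets, 34945 of them with 1 gene symbol. The 932 with several were left out. Intensities were taken to log2 without further normalization, and 18640 probe sets above 4 on at least 3 of 6 arrays were kept. Each gene was represented by its kept probe set with the highest mean. The groups were compared with limma 3.58.1 in R 4.3.3 (lmFit, eBayes, two-sided), adjusted over 10501 genes by the Benjamini-Hochberg method and called under 0.05. The fit was also run on simulated data with independent noise and few changed genes. That setting is simpler than these arrays, so no result here rests on it. The number of arrays limits the precision. A bound of a fold compares the brighter mean with the dimmer arrays set to at least 4.

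Members, lists and tests were chosen with earlier results of these data known. All members are named, and up to 4 called genes of the largest difference per list of other genes. The labels give both cell types the replicate numbers 1 to 3 and do not state whether equal numbers are pairs. Their deviations correlated at -0.098, 0.062 and 0.073, which cannot decide it with so few arrays. The main fit did not take the numbers as pairs. Promoters came from RefSeq's table for GRCm38.p6. Alternatives covered the filter, low values, the choice of probe set, limma's spread, normalization, a replicate block and leaving out arrays.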

Additional observations from a re-analysis of the deposited data

How the results depend on the processing

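Members called numbered 26 to 30 when single arrays were left out (12 higher throughout, 14 to 18 lower), all tested genes called 5706 to 7184, and other pathway genes called 49 to 58. With the replicate block 28 members were called, 12 higher and 16 lower, against 30 without it, and 6257 of all tested genes against 6731. The block ended the calls of the members Tgfbr2 (adjusted p = 0.0568) and Smad2 (0.0512) and of no other member. Deviations of arrays with the same number correlated at -0.098 to 0.073. With 3 arrays per cell type this cannot show whether equal numbers share an origin. Without MSC 2 and NCSC 3 together 34 members were called. Over 16 alternatives for 38 members, 574 of 606 values kept the side of the threshold and, where called, the direction. The call was lost by 21 and gained by 10, in 13 genes in all. A change of sign between uncalled values was counted as kept, such as in Smad3, which ranged from -0.062 to 0.178 and was never called. Id2 changed sign and was called without MSC 2 and NCSC 3 together (0.22), a setting chosen after seeing the data. With the mean of the kept probe sets, Ski (-0.033), Ppm1a (-0.0078) and Map3k7 (-0.31) changed sign against 0.29, 0.62 and 0.28 in the brightest one, since their probe sets differ in direction. Without the filter Tgfbr3 (adjusted p = 0.078) and Ltbp4 (0.0986) were not called. Fitted differences of members under the limit in a cell type rest on the lowest values, such as -5.25 for Bmp4 with values under 4 set to 4, against -6.73.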
